A study of Mus musculus with 6 samples.

Results

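The genes described here write and read the marks of silent chromatin: 10 genes taken by symbol from the 53735 rows of the deposited table. They are the H3K9 methyltransferase genes Suv39h1, Suv39h2, Setdb1, Ehmt1 and Ehmt2, the heterochromatin protein 1 (HP1) genes Cbx1, Cbx3 and Cbx5, the H3K27 methyltransferase gene Ezh2 and the maintenance DNA methyltransferase gene Dnmt1. All 10 were found in the table, and all 10 passed the filter of a mean of at least 10 normalized counts. Their RNA was measured in cultures named as primary mouse lung endothelial cells. The cells were isolated with beads against CD31 and ICAM2 and grown to confluence without passage or treatment. The 2 wild type libraries and 4 knockout libraries differ in the labels by genotype alone, wild type or knockout for ZMPSTE24, the protease that finishes the maturation of lamin A. The knockout allele, the strain, the age and the sex of the mice are not named in the labels. The labels do not tie libraries to individual animals, so p-values and errors reflect variation among libraries that could be technical in part.

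In silent chromatin, methyltransferases place methyl groups on lysine 9 of histone H3, and HP1 proteins bind that mark through a chromodomain and can recruit the methyltransferases in turn. Polycomb repressive complex 2, whose catalytic subunit is EZH2 or EZH1, marks lysine 27 instead. DNMT1 copies CpG methylation to the new DNA strand at replication. Much of the H3K9-methylated chromatin lies at the nuclear lamina, which is built from lamins, and loss of heterochromatin marks has been described in progeroid cells. Several of these genes, among them Ezh2 and Dnmt1, are known for higher expression in dividing cells.

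The libraries fell into a pair of sets that cut across the genotypes, and several later results are given with and without this split. Wild type 1 and knockout 1 formed the first set, and wild type 2 with knockout 2, 3 and 4 the second, on the first principal component, which held 77.3% of the variance. The labels name 2 cohorts of mice but assign no library to one. Libraries held 32699024 to 45613685 reads. Of 12 endothelial markers none was at 0 in any library, with summed levels of 189209 and 63353 normalized counts in wild type 1 and 2, and 41630 to 111674 in knockout. All 12 had a log2 difference below 0, with a median of −0.74 with genotype alone and −0.45 with library set in the model, and 0 were called by limma in either model. An unadjusted p under 0.05 was reached by 2 of them with genotype alone and by 5 with library set in the model, against 0.939% and 3.51% of all genes. DESeq2 with library set in the model called 2 of the 12, Flt1 and Vwf, against 0.328% of all genes, and Kdr and Flt1 had every knockout library below both wild type libraries, against 2.32% (these genes are named after their values were seen). Markers of 1 cell type can vary together, so the 12 are not independent results. The part of these marker levels in the members' values was not tested. Macrophage markers summed to 4266 and 5263 in the first set and to 30080 to 47861 in the second, fibroblast markers to 403389 to 472532 over all 6 libraries. The 8 fibroblast markers summed above the 12 endothelial ones in every library, as did 6 smooth muscle markers (66773 to 235834). Sums of different genes do not give shares of cells, but the members' levels cannot be assigned to endothelial cells alone. Zmpste24 itself was counted at 5503 and 4148 where the label was wild type, and at 5079, 3764, 3599 and 3720 where it was knockout. The deleted part is not stated, so this count does not check the labels.

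Short stretches of the members' promoters are printed first, because some members, Ezh2 and Dnmt1 among them, are known targets of E2F factors, which drive genes of S phase. The 10 members had 16 promoter windows in RefSeq (GRCm38.p6), each 300 bases from 250 before to 50 after an annotated start. The letters TTTGGCGC, TTTCGCGC, TTTCCCGC or TTTGCCGC, the forms of the E2F consensus, were searched on both strands. A match was present for 4 of the 10 members, Ezh2, Cbx3, Dnmt1 and Suv39h1, against 2.61% of 27025 genes and 2.26% of 32851 windows. The capitals mark the match in the 30 bases that hold it, read 5′ to 3′ on the gene's strand.
Ezh2, chr6:47595009-47595038, minus strand: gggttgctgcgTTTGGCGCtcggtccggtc
Cbx3, chr6:51470437-51470466, plus strand: tggagccccgcTTTGGCGCgctccgagacg
Dnmt1, chr9:20952824-20952853, minus strand: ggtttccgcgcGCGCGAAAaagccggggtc
Dnmt1, chr9:20952574-20952603, minus strand: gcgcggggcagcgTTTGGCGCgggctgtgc
Suv39h1, chrX:8074407-8074436, minus strand: ggaaggccggcGCGGCAAAcgtgggggccg

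The Ezh2 and Cbx3 stretches hold the same 8 letters, as does the second Dnmt1 stretch. In the first Dnmt1 stretch and in Suv39h1 the match lies on the opposite strand. It begins at base 4 of the transcript for Ezh2, and 168 and 64 bases before an annotated start for Cbx3 and Suv39h1. The 2 Dnmt1 matches begin 219 bases before and at base 34 after the same start, which lies inside the gene, downstream of its first start. The members' windows were rich in G and C, with a median of 66.3% against 52.7% over all windows. The share of windows that hold these letters among GC-rich promoters was not tested. The CCAAT box, on both strands, was in the windows of 5 members against 41.1% of genes. The letters TTTGAA, known from promoters of genes of late cell cycle phases, were in 2 against 20.2%. Neither shares a site with the E2F letters printed here. These are descriptions of letters, not of bound sites.

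No member passed a test of the genotypes. By limma with genotype alone, 0 of 10 were called at an adjusted p under 0.05, where 0.00657% of all 15229 tested genes were (1 gene), and 0 reached an unadjusted p under 0.05, against 0.939% of all genes. With library set in the model, 0 of 10 were called and 0 reached an unadjusted p under 0.05, against 0.00657% and 3.51% of all genes. EdgeR and DESeq2, run on whole reads recovered from the table, also called 0 members, where they called 0.00657% and 0.046% of all genes, and 0 members had an unadjusted p under 0.05, against 0.998% and 1.43%. When library set was added to these models, 0 members were called and 0 had an unadjusted p under 0.05, where edgeR called 0.0131% of genes and DESeq2 0.328%, and 3.51% and 3.66% had such a p. Knockout and wild type libraries overlapped for all 10 members, while 2.32% of all genes had every knockout library lower and 2.36% every one higher. The median log2 difference, knockout minus wild type, was −0.03 over the members and 0.00 over all tested genes. It was −0.08 with library set in the model, where 9 of the 10 lay below 0, against 50.7% of all tested genes, while with genotype alone 6 did. Some of the 9 were near 0, such as Ehmt2 at −0.005, which was 0.002 by edgeR with the set. Several members varied together over the libraries (r = 0.988 for Suv39h2 with Ezh2), so their signs are not independent results. In bulk RNA, fewer cells of a type and less RNA per cell cannot be told apart.

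**Figure D1:**
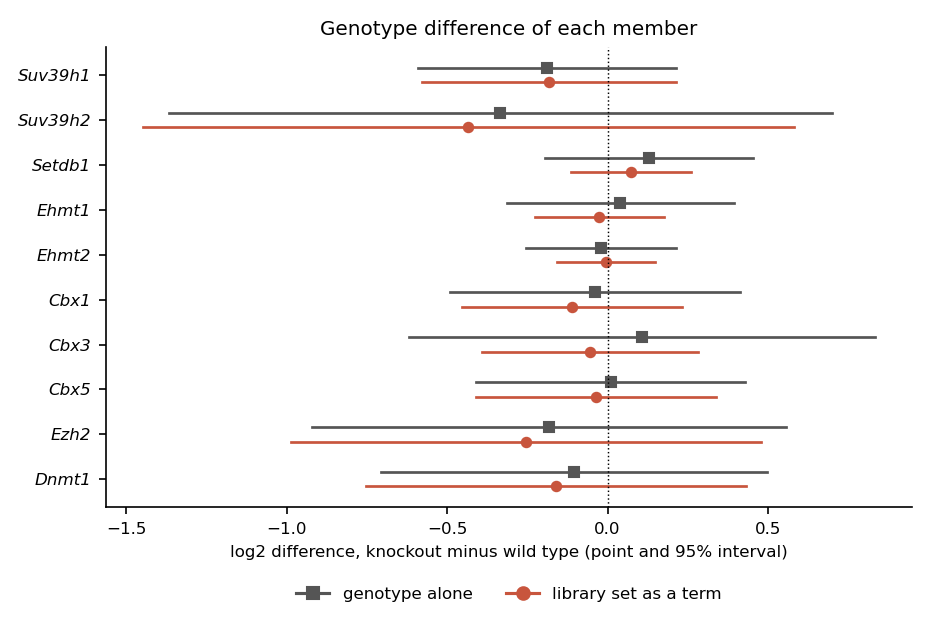
Log2 difference (knockout minus wild type) of each member, with its 95% interval, from limma with genotype alone (grey squares) and with library set in the model (red circles). All 20 intervals cross 0, and they are narrowest for Ehmt2 and widest for Suv39h2.

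Of the 10 members, Ehmt2 varied least between the libraries. Ehmt2 and Ehmt1 encode G9a and GLP, which act as a pair on H3K9 in euchromatin. Ehmt2 (GRCm38, GENCODE M21, as for all positions of genes here: chromosome 17, 34898469 to 34914052, plus strand) stood at 6705 and 6611 normalized counts in the wild type libraries, and at 6862, 6550, 6563 and 6310 in knockout 1 to 4. Its highest library was 1.09 times its lowest, and the genotypes overlapped. The log2 difference was −0.02 ± 0.10 (SE), and with library set in the model −0.00 ± 0.06, with a 95% interval from 0.897-fold to 1.11-fold. Ehmt1 (chromosome 2, 24789928 to 24919614, minus strand) stood at 2424 and 2894 normalized counts in the wild type libraries, and at 2376, 3013, 2909 and 2631 in knockout 1 to 4. Here the first set was lower than the second in both genotypes. The log2 difference was 0.04 ± 0.14 (SE), and −0.03 ± 0.08 with library set in the model (limma adjusted p = 1.00 and 0.999).

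Setdb1 encodes the methyltransferase that works with TRIM28 at retroelements. Setdb1 (chromosome 3, 95323525 to 95357202, minus strand) stood at 1764 and 1895 normalized counts in the wild type libraries, and at 1709, 2139, 2089 and 2089 in knockout 1 to 4. Within the second set all 3 knockout libraries lay above their wild type, by log2 0.17, 0.14 and 0.14. Knockout 1 lay below wild type 1, by −0.05. The difference was 0.13 ± 0.13 (SE) with genotype alone and 0.07 ± 0.07 with library set in the model, neither of them called, and the latter's 95% interval ran from −0.12 to 0.26. The genotype difference of Setdb1 did not pass a test of unequal size in the 2 sets (limma interaction adjusted p = 0.999). The first set holds a single library of each genotype, and this test called 0 of 15229 genes. It therefore cannot show that the difference is equal in the sets.

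The SUV39H enzymes trimethylate H3K9 in constitutive heterochromatin such as that around centromeres. Suv39h1 (chromosome X, 8061171 to 8074760, minus strand) stood at 1341 and 1165 normalized counts in the wild type libraries, and at 1040, 949, 1120 and 1310 in knockout 1 to 4. Knockout 1, 2 and 3 lay below both wild type libraries and knockout 4 between them. Mean counts by genotype were 1253 ± 125 (SD, n = 2) and 1105 ± 154 (SD, n = 4), and the log2 difference was −0.19 ± 0.16 (SE) with genotype alone and −0.18 ± 0.16 with library set in the model. Suv39h2 (chromosome 2, 3455815 to 3475031, minus strand) stood at 158 and 189 normalized counts in the wild type libraries, and at 106, 91.2, 152 and 239 in knockout 1 to 4. Knockout 4 had the highest and knockout 2 the lowest of the 6 values, 2.62-fold apart, so that the knockout range enclosed the wild type one. Its lowest library held 100 reads of the gene. The wild type mean was 174 ± 21.8 (SD, n = 2) and the knockout mean 147 ± 66.7 (SD, n = 4). Its log2 difference was −0.33 ± 0.42 (SE), and −0.43 ± 0.40 with library set in the model. The 95% interval of the latter, from −1.45 to 0.58, is wide and does not exclude sizeable differences in either direction.

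**Figure D2:**
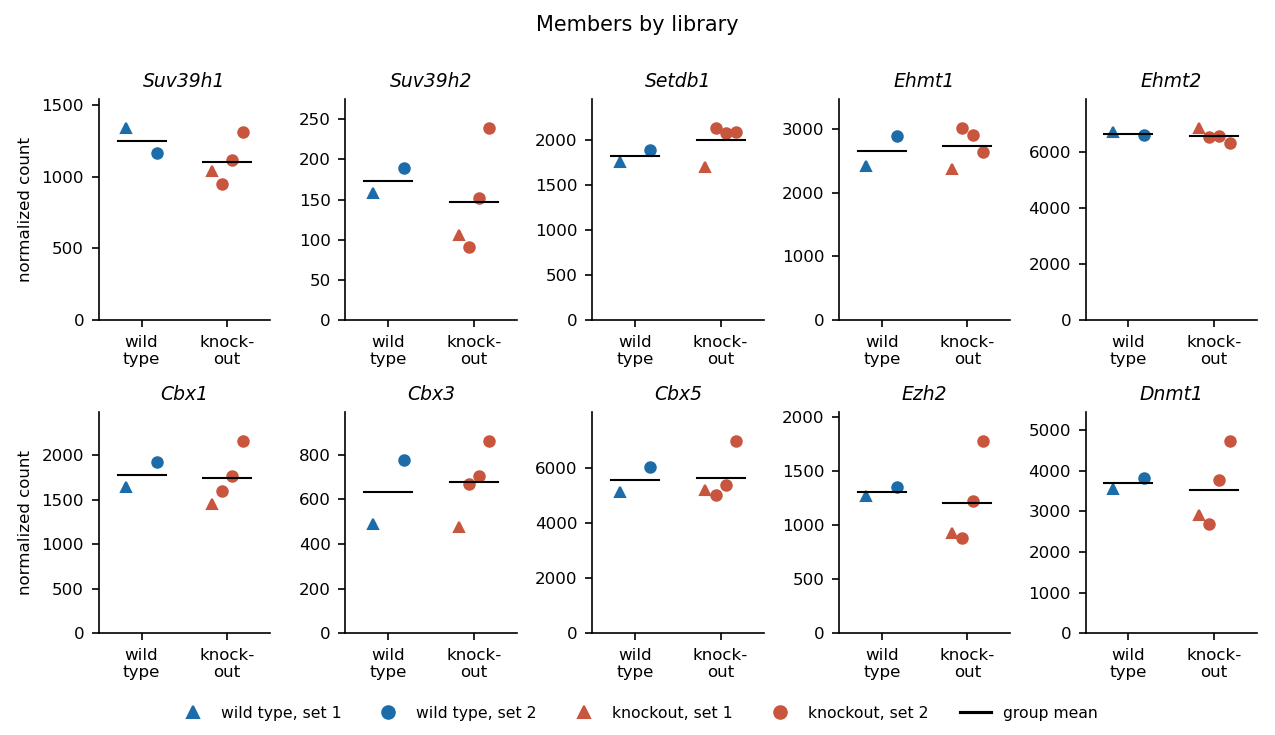
Normalized counts of the 10 members in each library, on linear axes from 0; triangles are libraries of the first set, circles of the second, and bars are genotype means (2 wild type, 4 knockout libraries). The libraries of Ehmt2 lie within 1.09-fold of each other, while those of Suv39h2 span 2.62-fold and those of Ezh2 2.01-fold.

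None of the HP1 genes was called between the genotypes, and the share of Cbx3 among them differed between the library sets. Cbx5 encodes HP1 alpha, Cbx1 HP1 beta and Cbx3 HP1 gamma, the readers of methylated H3K9. Cbx5 (chromosome 15, 103191544 to 103239816, minus strand) stood at 5101 and 6020 normalized counts in the wild type libraries, and at 5174, 5005, 5369 and 6956 in knockout 1 to 4. Cbx1 (chromosome 11, 96789127 to 96808640, plus strand) stood at 1635 and 1919 normalized counts in the wild type libraries, and at 1453, 1598, 1768 and 2153. For both genes knockout 4 was the highest library and the genotypes overlapped. The log2 differences, with library set in the model, were −0.04 ± 0.15 (SE) for Cbx5 and −0.11 ± 0.14 for Cbx1. Cbx3 (chromosome 6, 51470360 to 51483704, plus strand) stood at 488 and 778 normalized counts in the wild type libraries, and at 478, 670, 704 and 861 in knockout 1 to 4. The first set held its 2 lowest values, in both genotypes, and the mean of the second set was 1.56 times that of the first. The log2 difference was 0.11 ± 0.30 (SE) with genotype alone and −0.05 ± 0.13 with library set in the model, so its sign followed how the sets were treated.

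Levels of different genes can be compared per length, here as normalized count per kb of merged exons (GENCODE M21, GRCm38). On this scale Cbx5 took 52.9% to 57.8% of the HP1 total over the 6 libraries, Cbx1 34.2% to 37.1% and Cbx3 7.90% to 10.7%. The order Cbx5, Cbx1, Cbx3 was the same in all 6. Merged exons include those of every annotated transcript, so shares and ranks depend on the annotation as well as on RNA level. Some symbols of the deposited values point to an older annotation than this one. The Cbx3 share was 7.90% and 8.02% in wild type 1 and knockout 1, and 10.1% to 10.7% in the 4 libraries of the second set, with no overlap between the sets. Cbx3 is uncertain: transcripts of 20 other annotated genes match it at 90% identity or more over at least 300 nt, 18 of them processed pseudogenes, and 8 of these at 95% or more. Reads in such stretches may have been shared or lost, and the sources used here do not give how multiply mapped reads were counted. Cbx1 had 1 such pseudogene at 93.0% and Cbx5 had 0.

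Ezh2 showed wide differences among the knockout libraries and none between the genotypes that passed the test. Ezh2 (chromosome 6, 47530139 to 47595341, minus strand) stood at 1269 and 1350 normalized counts in the wild type libraries, and at 923, 884, 1222 and 1776 in knockout 1 to 4. The wild type libraries sat close together, and the knockout libraries lay on both sides of them. A spread over 2 libraries cannot be compared with one over 4, and this holds for Suv39h2 and Dnmt1 as well. Averages were 1310 ± 57.6 (SD, n = 2) and 1201 ± 412 (SD, n = 4). The log2 difference was −0.18 ± 0.30 (SE), and −0.26 ± 0.29 with library set in the model, with an interval from 0.505-fold to 1.39-fold.

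Dnmt1 followed nearly the same library order as Ezh2. Dnmt1 (chromosome 9, 20907209 to 20959888, minus strand) stood at 3555 and 3816 normalized counts in the wild type libraries, and at 2908, 2676, 3761 and 4721 in knockout 1 to 4. Again knockout 2 was lowest and knockout 4 highest, 1.76-fold apart. Genotype means came to 3686 ± 184 (SD, n = 2) and 3516 ± 928 (SD, n = 4), with a log2 difference of −0.10 ± 0.25 (SE), and −0.16 ± 0.24 with library set in the model. Without knockout 2 it was 0.02, so its sign rested on that library.

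Suv39h2, Ezh2 and Dnmt1 varied together, and with genes of dividing cells. A list of 20 proliferation genes, such as Mki67 and Top2a, summed to 41554 and 47565 counts for wild type 1 and 2, then to 33560, 26793, 45145 and 65137 for knockout 1 to 4. Its highest library was 2.43 times its lowest. With genotype alone 18 of the 20 had a log2 difference below 0, against 49.8% of all tested genes. With library set in the model 20 did, against 50.7%, and the medians of the list were −0.21 and −0.25. Genes of dividing cells can vary together, so these counts are not 20 independent results. Against the wild type library of its set, the list's median log2 difference was −0.41, −0.84, −0.04 and 0.45 for knockout 1 to 4. The sign was thus not shared by all knockout libraries. In either limma fit 0 were called, where 0.00657% of all tested genes were. All 3 members were lowest in knockout 2, next in knockout 1 and highest in knockout 4, as was the list, and Dnmt1 had the list's order in all 6 libraries. Over all 10 members, 5 were lowest in knockout 2 and 6 highest in knockout 4, against 17.7% and 17.9% of all tested genes. The 3 were grouped after their values were seen. Mki67 itself stood at 3510 and 3343 normalized counts in the wild type libraries, and at 2083, 1917, 3332 and 5119 in knockout 1 to 4. Taken as a percentage of the list's sum, Ezh2 was 3.05% and 2.84% for wild type 1 and 2, then 2.75%, 3.30%, 2.71% and 2.73% in knockout 1 to 4, so its spread fell from 2.01-fold to 1.22-fold. For Suv39h2 the ratio was 0.380% and 0.397% in wild type, and 0.315%, 0.341%, 0.336% and 0.367% across knockout 1 to 4, and its spread fell from 2.62-fold to 1.26-fold. All 4 knockout ratios lay below both wild type ratios, a log2 difference of −0.20 (exact permutation p = 0.133, two-sided). That p is double the smaller one-sided p, and the smallest this form allows for 2 against 4 libraries. The closest ratios were 0.367% in knockout 4 and 0.380% in wild type 1. Counting error alone is 10% at the 100 reads of the lowest library of Suv39h2. The ratio to the list's sum was looked at after its values were seen. Its groups did not overlap for 1 of 10 members, against 0.302% of all tested genes that were lower and 0.88% that were higher. For Dnmt1 the spread fell from 1.76-fold to 1.38-fold. The ratio varied more than the count for the other 7 members. A member with the list's pattern but a smaller swing can also get a more varied ratio, so this alone does not mark a different pattern. On log2(normalized count + 1), Pearson's r with Suv39h2, Ezh2 and Dnmt1 was 0.891, 0.911 and 0.896 for Cbx1. It was 0.856, 0.867 and 0.856 for Cbx5, and 0.847, 0.849 and 0.816 for Suv39h1. For the other members r with these 3 ran from −0.682 (Ehmt2 with Ezh2) to 0.604 (Cbx3 with Dnmt1). Whether proliferation sets these levels was not tested.

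**Figure D3:**
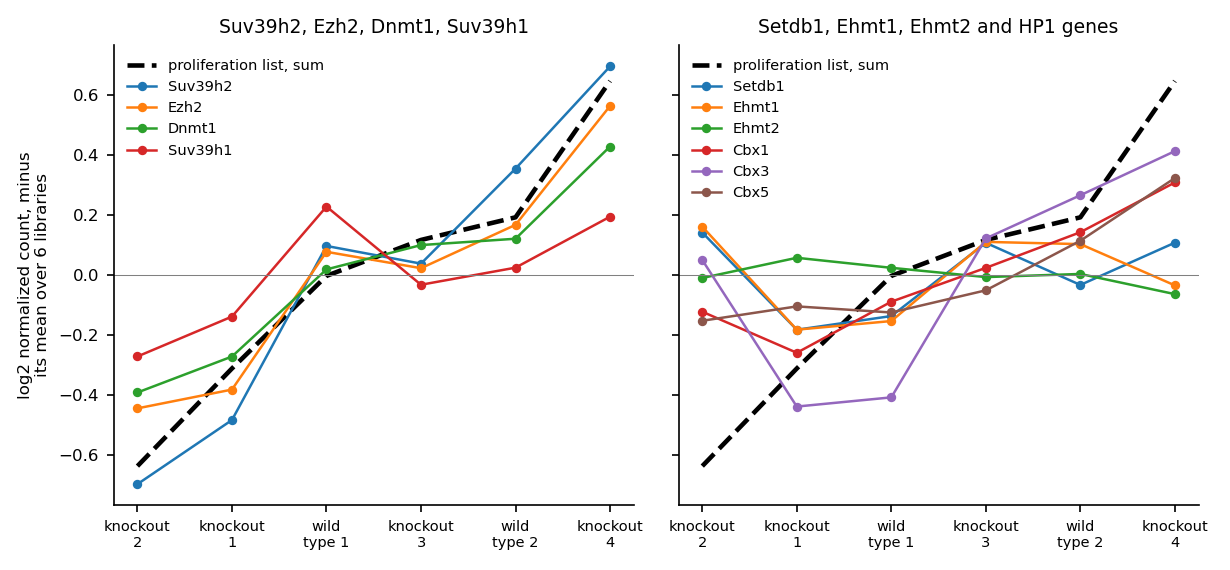
Log2 normalized count of each member minus its mean over the 6 libraries, with libraries ordered by the summed proliferation list (dashed). In the left panel Suv39h2, Ezh2 and Dnmt1 follow the dashed line from knockout 2 to knockout 4, and in the right panel Ehmt2 stays within a 1.09-fold range.

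The genes whose pattern over the 6 libraries was most like that of the most variable members differed by member. By the SD of log2(normalized count + 1) these members were Suv39h2, Ezh2 and Cbx3, and the likeness was Pearson's r on that scale among 11854 genes of mean at least 100. With 6 libraries and this many genes, high values of r are common. Nearest to Suv39h2 were Cdca2, Trip13 and Spag5 (r = 0.993 for each), and nearest to Ezh2 were Nsd2 (r = 0.999), Ccna2 and Bub1 (r = 0.997 for both). The last 2 belong to the proliferation list. Nearest to Cbx3 were Dnttip2 (r = 0.999), Stard7 and Mettl14 (r = 0.998 for both). Among the 100 genes nearest to Suv39h2, Ezh2 or Dnmt1, the other 2 of these 3 were present each time, with 8, 6 and 8 of the 20 proliferation genes. Among the 100 nearest to Suv39h1 were 5 proliferation genes, to Cbx1 2, and to each of the other 5 members 0.

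On the per-kb scale, which depends on annotated exon length, Ehmt2 ranked highest among the members. It had 1202 normalized counts per kb on average and 1150 to 1250 across libraries, above every library of every other member. Then came Cbx5 with a mean of 622, Dnmt1 with 484, Cbx1 with 411, Ehmt1 with 334 and Setdb1 with 284. Suv39h1 followed with 219, Ezh2 with 185 and Cbx3 with 111, and the ranges of neighbours from Cbx5 down to Cbx3 overlapped. Suv39h2 was lowest, with 20.7 to 54.2 per kb in all libraries. Some of its reads may belong to Dclre1c, a gene on the opposite strand that shares 357 nt of its exons and averaged 241 normalized counts, since the use of strand in counting is not stated. For Suv39h1 the same holds of an annotated antisense gene, Gm14820, over 767 nt, or 14.6% of its exons. For Setdb1 it holds of Cers2, which shares 75 nt of exon on the opposite strand and averaged 7349 normalized counts, and of Gm37500, over 249 nt. A transcript of another gene, Gm4349, matches Setdb1 at 99.4% over 645 nt.

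The balance between the alternative catalytic subunits of PRC2 varied with the library. Per kb, Ezh2 made up 50.2% and 46.1% of the sum of Ezh1 and Ezh2 in wild type 1 and 2, and 43.5%, 32.8%, 42.6% and 56.1% in knockout 1 to 4. The share was lowest in knockout 2 and highest in knockout 4, and the genotypes overlapped. Ezh1, the subunit known from non-dividing cells, stood at 1404 and 1759 normalized counts in the wild type libraries, and at 1336, 2022, 1836 and 1548 in knockout 1 to 4. Dnmt1 made up 63.0% to 80.7% of the sum of Dnmt1, Dnmt3a and Dnmt3b, and Dnmt3b 1.76% to 3.94%.

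**Figure D4:**
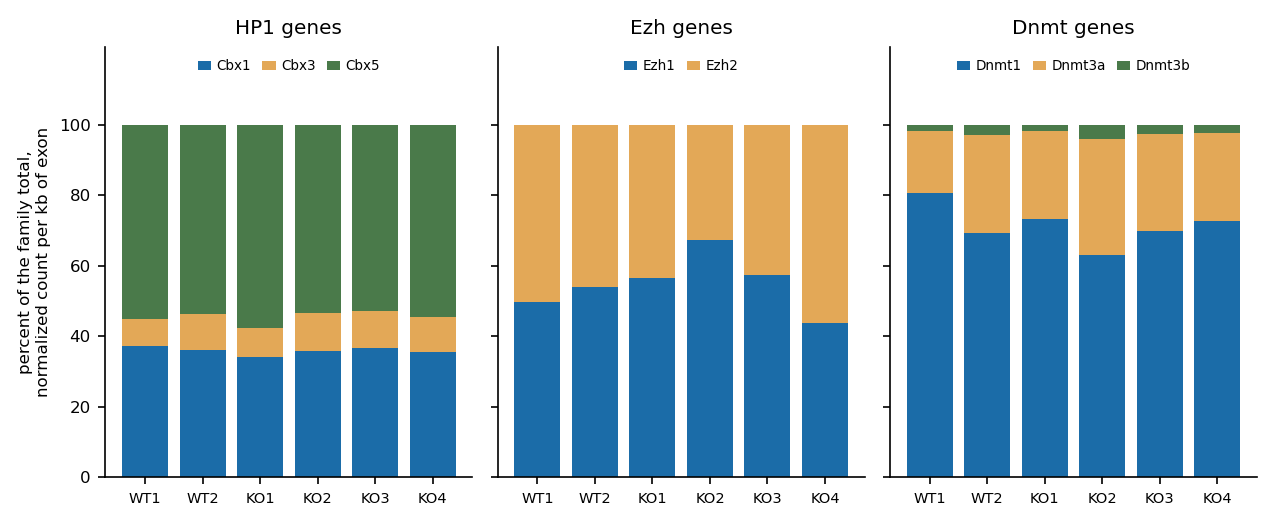
Share of each gene in the per-kb total of its family in each library (WT, wild type; KO, knockout); bars of a library add up to 100%. The Cbx3 share is 7.90% and 8.02% in the first set (WT1, KO1) and 10.1% to 10.7% in the second, and the Ezh2 share runs from 32.8% in knockout 2 to 56.1% in knockout 4.

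Of 68 other genes of the same pathways, all tested, 0 were called by limma, edgeR or DESeq2, whether or not library set was in the model. In these fits an unadjusted p under 0.05 was reached by 0 in limma and edgeR, and by 1, Mbd1, in DESeq2 with library set in the model, against 3.66% of all genes. Knockout libraries lay above both wild type libraries for 2 of the 68, against 2.36% of all genes, and below for 0, against 2.32%. These 2, named after their values were seen, were Mbd1, a methyl-CpG reader, and Kdm3b, an H3K9 demethylase. Mbd1 stood at 8415 and 8687 normalized counts in the wild type libraries, and at 12830, 8848, 9596 and 9899 in knockout 1 to 4, which gave a log2 difference of 0.25 ± 0.17 (SE; adjusted p from limma = 1.00). Kdm3b stood at 3164 and 3308 normalized counts in the wild type libraries, and at 3405, 3644, 3556 and 3334 in knockout 1 to 4, which gave 0.11 ± 0.10. The 68 had a median log2 difference of 0.07 with genotype alone and −0.00 with library set in the model, where 34 lay below 0.

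**Figure D5:**
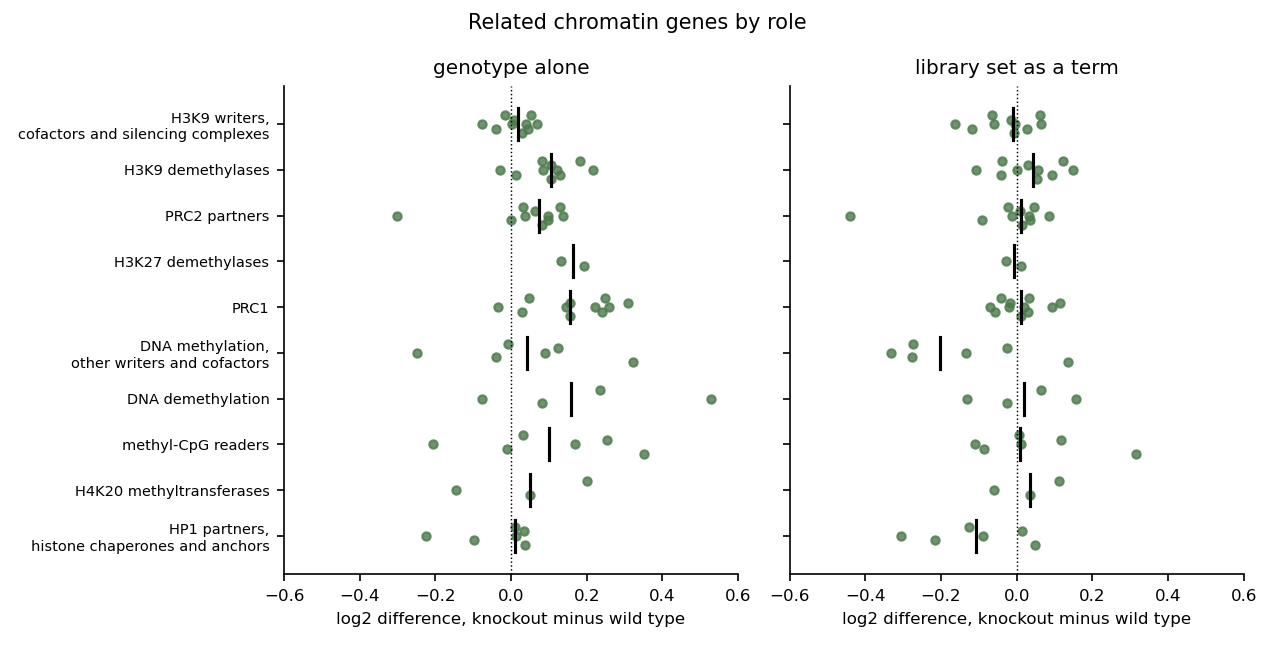
Log2 differences (knockout minus wild type) of the 68 related genes, each a point, by role, with genotype alone and with library set in the model; black bars are medians. With the term, 34 of the 68 points lie below 0, and none of the genes was called in either fit.

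By role, the related genes gave these counts. Of 10 genes for other H3K9 writers (Setdb2 and Prdm2), cofactors and silencing complexes, 0 were called, with differences from −0.16 to 0.06 with library set in the model. Trim28, the corepressor that brings SETDB1 to its targets, differed by −0.12 ± 0.10 (SE), and Atf7ip, which stabilises SETDB1, by −0.01 ± 0.07. Of the 10 H3K9 demethylases 0 were called (−0.11 to 0.15), among them Kdm4a at −0.04 ± 0.06. The 10 PRC2 partners ranged from −0.44 to 0.08 and 0 were called. In this group the core subunits Eed and Suz12 differed by 0.02 ± 0.10 and −0.09 ± 0.16, and Ezh1 by −0.01 ± 0.13. The H3K27 demethylases Kdm6a and Kdm6b differed by 0.01 ± 0.08 and −0.03 ± 0.11.

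Among other DNA methylation genes the spread between libraries was again wide. Uhrf1, which guides DNMT1 to newly copied DNA, stood at 1257 and 1446 normalized counts in the wild type libraries, and at 910, 558, 1547 and 2110 in knockout 1 to 4. Hells, a remodeller needed for DNA methylation, stood at 775 and 1502 normalized counts in the wild type libraries, and at 591, 726, 1352 and 2290. Both were highest in knockout 4, with the genotypes overlapping, and spanned 3.78-fold and 3.88-fold. With library set in the model they differed by −0.33 ± 0.55 and −0.27 ± 0.46 (SE). The de novo methyltransferase Dnmt3a stood at 1727 and 3445 normalized counts in the wild type libraries, and at 2239, 3175, 3326 and 3673 in knockout 1 to 4, lower in the first set in both genotypes. It differed by 0.13 ± 0.12 (SE), its relative Dnmt3b by −0.13 ± 0.19, and the dioxygenase gene Tet2 by 0.16 ± 0.09, with the same term. Of the 6 genes of this group and the 4 of DNA demethylation, 0 were called.

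In the remaining groups 0 genes were called as well. Lbr, the lamin B receptor that anchors HP1 at the nuclear envelope, differed by −0.13 ± 0.12 (SE, library set in the model). Suv420h1, now named Kmt5b, which methylates H4K20 downstream of HP1, differed by 0.04 ± 0.08. The polycomb readers Cbx2 and Cbx7, relatives of the HP1 genes that bind H3K27 methylation, differed by −0.07 ± 0.10 and 0.03 ± 0.20. Cbx2 had 269 and 241 counts in wild type 1 and knockout 1, and 600 to 650 in the other 4 libraries. The 2 sets did not overlap for 4 of the 10 members (Setdb1, Ehmt1, Ehmt2 and Cbx3) and 48 of the 68 related genes, against 63.4% of all tested genes. The sets were defined from all genes, so these counts are descriptions.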

How the data were processed

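RNA of 6 libraries was analysed from 1 deposited table of 53735 genes. Its values are a normalized count signal, which the authors normalized with DESeq2, per the labels' design text. The submitters' processing notes list Trimmomatic 0.36, STAR 2.6.0c, Subread 1.6.1 and the build GRCm38.p6, while the design text has other versions, HTSeq and DESeq2. The sources used here do not say which route produced the table, or whether strand was used.

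Limma 3.58.1 (R 4.3.3; lmFit, eBayes with a mean trend) was run on log2(normalized count + 1) of 15229 genes whose mean was 10 or more, with genotype as the sole term and Benjamini-Hochberg adjustment over all of them. This scale understates differences of low genes. SE are those of limma. Every value above 0 was a whole multiple of its library's smallest value (within 1e-06 of a read), so reads were recovered for edgeR 4.0.16 (quasi-likelihood) and DESeq2 1.42.0, as alternatives. The step of knockout 4 lies so near 1 that an automated check of the units did not accept the recovery for that library, and it rests on this multiple test alone. Other settings were the library set as a term or the second set alone, pseudocount 5, no filter, equal totals, TMM scaling, the title number as a replicate block, and each library left out. EdgeR with the library set was added after seeing the data. Limma with genotype alone and limma with the library set were tested on simulated data. The other settings were not.

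The members and gene lists were chosen with earlier results of these data known. Named were all members, 17 related genes fixed by symbol, Mki67, Zmpste24, and the nearest genes by the stated likeness. Suv420h1, Setd8 and Suv420h2 were matched through RefSeq synonyms. No pair of libraries of 1 genotype agreed within sampling noise (chi-square per gene 26.2 to 397). Other marker lists summed, over the 6 libraries, to 66773 to 235834 normalized counts for smooth muscle, 8550 to 61241 for mesothelium and 669 to 1142 for lung epithelium, of whose 6 genes 3 were at 0 in some library.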

Additional observations from a re-analysis of the deposited data

Results flagged for a closer look

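Among 29 named genes, 4 had 1 knockout library far from the other 3, the gap to the nearest exceeding Dixon's 95% critical value for 4 samples. Chance flags about 1 group in 20. The library was knockout 1 each time, the sole knockout library of the first set. Setdb1 had 1709 normalized counts there and 2089 to 2139 in the other 3. Kdm4a had 4359 against 6370 to 6718, and Cbx2 had 241 against 600 to 650. Zmpste24 had 5079 against 3599 to 3764.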

How the results depend on the processing

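The members called stayed at 0, and the related genes called at 0, in all 17 alternatives, with adjusted p of the members from 0.597 to 1.00. Of the 10 members, Suv39h1, Suv39h2, Setdb1 and Ezh2 kept their sign in all 17, and the other 6 did not. The sizes of these 4 moved by over 1.5 times with 1 library left out: Suv39h1 (−0.19 with all libraries) was −0.086 without wild type 1, −0.29 without wild type 2 and −0.12 without knockout 2. Suv39h2 (−0.33) was −0.21 without wild type 2, −0.21 without knockout 1, −0.14 without knockout 2 and −0.60 without knockout 4. Setdb1 (0.13) was 0.077 without wild type 1 and 0.20 without knockout 1. Ezh2 (−0.18) was −0.075 without knockout 1, −0.054 without knockout 2 and −0.39 without knockout 4. Ehmt2 ranged from −0.041 to −0.00021 with each library left out. The genes called overall went from 1 to 2 with a pseudocount of 5 or with edgeR and library set (chosen after seeing the data), 7 with DESeq2, 50 with DESeq2 and the library set, 0 in the second set alone (302 at an unadjusted p under 0.05) and 0 to 2 with each library left out: 2 without knockout 1, and 0 without knockout 2, 3 or 4. With the title number as a replicate block 0 genes were called by limma. An unadjusted p under 0.05 was reached by 781 of 15229 genes, 3 of the 10 members and 4 of the 68 related genes. Suv39h2, Ezh2 and Dnmt1 then differed by −0.81, −0.53 and −0.40. Knockout 3 and 4 have no wild type library of their number, so they add nothing to these differences. The values rest on wild type 1 and 2 and knockout 1 and 2 alone. Across genes, deviations from the genotype mean had r = 0.841 between the libraries of number 1 and 0.562 between those of number 2. Wild type 2 had r = 0.668 with knockout 3 and 0.530 with knockout 4, also of the second set. With 2 wild type libraries their deviations are equal and opposite. These values therefore cannot tell pairing by number from the library sets, and the labels give the number no meaning.

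Of 493 values of single genes, 401 kept their sign and 0 were called. Signs turned as follows (log2); the cause was not tested. Hells was 0.0084 with equal totals, 0.011 with TMM, 0.13 with edgeR and 0.12 with DESeq2. With library set in limma, Ehmt1 was −0.026, Cbx3 −0.055, Cbx5 −0.036, Dnmt3b −0.13, Suz12 −0.091, Ezh1 −0.013, Kdm6b −0.028, Atf7ip −0.014, Kdm4a −0.042, Lbr −0.13 and Cbx2 −0.071. In the same order DESeq2 with the set gave −0.024, −0.050, −0.027, −0.12, −0.080, −0.0072, −0.024, −0.013, −0.041, −0.12 and −0.063. EdgeR with the set gave −0.018, −0.043, −0.020, −0.12, −0.073, −0.0012, −0.018, −0.0072, −0.035, −0.12 and −0.062, and 0.0020 for Ehmt2. In the second set alone Ehmt1 was −0.024, Cbx3 −0.071, Cbx5 −0.074, Dnmt3a −0.025, Dnmt3b −0.055, Suz12 −0.062, Kdm4a −0.040, Cbx2 −0.014 and Cbx7 −0.21. With the replicate block Ehmt2 was 0.010, Cbx3 −0.12, Cbx5 −0.12, Dnmt3b −0.084, Eed −0.052, Suz12 −0.21, Atf7ip −0.033, Kdm4a −0.062, Lbr −0.20 and Cbx2 −0.12.

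With each library left out, the range was −0.089 to 0.17 for Ehmt1, −0.15 to 0.076 for Cbx1, −0.23 to 0.44 for Cbx3, −0.11 to 0.13 for Cbx5, −0.26 to 0.016 for Dnmt1, −0.55 to 0.092 for Uhrf1, −0.17 to 0.82 for Dnmt3a, −0.33 to 0.58 for Dnmt3b, −0.48 to 0.47 for Hells and −0.015 to 0.074 for Eed. It was −0.20 to 0.27 for Suz12, −0.080 to 0.25 for Ezh1, −0.17 to 0.56 for Kdm6a, −0.12 to 0.39 for Kdm6b, −0.19 to 0.11 for Trim28, −0.025 to 0.081 for Atf7ip, −0.19 to 0.40 for Kdm4a, −0.15 to 0.19 for Lbr, −0.36 to 0.87 for Cbx2 and −0.37 to 0.87 for Cbx7. Without 1 wild type library the other is assumed to vary like the knockout libraries. With 2 wild type libraries in different sets, only large differences could pass.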
